A study of Homo sapiens with 8 samples.

Results

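The cytochrome P450 genes were examined in HepG2 cells exposed to inhibitors of EZH1/2. They were taken from the deposited expression table as the rows whose gene symbol consists of CYP, a family number, a subfamily letter and a gene number, without CYP51A1, and 43 of the 25603 genes in the table met this rule. Of these 43 genes, 18 belong to families 1 to 3, 16 to the sterol, bile acid and fatty acid families (4, 7, 8, 27, 39 and 46) and 9 to other families (11, 17, 19, 20, 21, 24 and 26). HepG2 is an established human hepatocarcinoma cell line. The EZHi group received UNC1999 and valemetostat tosylate together, each at 1 µM, for 4 days, and the vehicle group received DMSO (0.2% in the labels) for the same time. EZH1 and EZH2 are the enzymes that place the repressive methyl mark on lysine 27 of histone H3, and both were targeted at once, so the effect of one inhibitor or one enzyme cannot be read from these groups. All cells of both groups grew on gelatin in William E medium with serum, insulin and 50 nM dexamethasone, a glucocorticoid. There were 4 libraries per group, which the study describes as independent biological replicates, and they carry replicate numbers 1 to 4 in both groups. HepG2 is a single tumour line, so differences between donors were not sampled.

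P450 enzymes are heme proteins that insert oxygen into their substrates. Most sit in the membrane of the endoplasmic reticulum, where they receive electrons from NADPH-cytochrome P450 reductase, and a smaller number sit in mitochondria and use ferredoxin. In the liver, members of families 1 to 3 are best known for the metabolism of drugs and other foreign compounds. Several enzymes of families 7, 8, 27 and 39 turn cholesterol and its hydroxylated forms into bile acids, and most enzymes of family 4 oxidize fatty acids and their derivatives. Other families make steroid hormones or break down retinoic acid and active vitamin D.

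Promoters were compared first, because the start regions of P450 genes differ widely in CpG content. RefSeq promoter windows of 300 bases (250 before the start and 50 after it, GRCh38.p14) were matched by symbol for 31 of the 43 genes. In 14 of these 31 (45.2%), at least one window had an observed/expected CpG ratio of 0.6 or more, which was the case for 51.9% of 27305 genes with a window. Such a window was found for 4 of 14 genes of families 1 to 3, for 6 of 9 genes of the sterol, bile acid and fatty acid families and for 4 of 8 genes of other families. The motif TATAAA, searched on the strand of the gene only, was present in a window of 11 of the 31 genes and of 8.99% of all genes. The bases before the start of 2 genes that were higher in EZHi-treated cells are shown as an example of a CpG-rich and of a CpG-poor start region, each on the strand of its gene with CpG in capitals. CYP26B1 lies at chr2:72147863-72148112 on the minus strand and holds 16 CpG (observed/expected 0.805), and CYP2B6 lies at chr19:40991032-40991281 on the plus strand and holds 0 CpG.
CYP26B1: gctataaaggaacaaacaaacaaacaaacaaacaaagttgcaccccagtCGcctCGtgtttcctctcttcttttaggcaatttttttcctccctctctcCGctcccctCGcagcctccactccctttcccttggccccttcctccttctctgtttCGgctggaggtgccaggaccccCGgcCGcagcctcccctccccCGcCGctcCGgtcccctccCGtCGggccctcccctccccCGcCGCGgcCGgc
CYP2B6: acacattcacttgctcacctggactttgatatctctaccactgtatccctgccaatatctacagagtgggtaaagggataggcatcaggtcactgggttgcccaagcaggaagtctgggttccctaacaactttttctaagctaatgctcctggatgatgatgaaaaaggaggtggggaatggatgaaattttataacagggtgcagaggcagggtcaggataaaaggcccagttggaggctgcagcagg

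The level of each gene was then determined. Levels are given as estimated FPKM, derived from the deposited log2 values, and differences between groups are given on the log2 scale of those values. P450 expression in these cells was concentrated in a few genes. CYP27A1, the mitochondrial sterol 27-hydroxylase, had a mean of 138.5 estimated FPKM and carried 34.3% of the summed level of all 43 genes. CYP2W1, an enzyme of limited expression in normal adult tissues, and CYP24A1, which degrades active vitamin D, followed with 70.6 and 49.2, and these 3 genes together carried 63.9% of the sum. Next came CYP4F12 with 28.2, CYP2S1 with 21.2, CYP4F3 with 20.3, CYP4F2 with 18.9, CYP20A1 with 12.0 and CYP4F11 with 10.1, and the 9 genes at 10 or more carried 91.2% of the sum. From CYP2W1 to CYP4F11 the ranges over the 8 libraries overlapped between neighbours in this order, so these ranks are not separated by the data, and CYP24A1 was above CYP2W1 in vehicle replicates 1 and 2. A further 10 genes lay between 1 and 10, 11 between 0.1 and 1, and 13 below 0.1.

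The major drug-metabolizing P450 enzymes of adult liver were low in these cells. CYP3A4 had 0.271 estimated FPKM, CYP2D6 0.536, CYP2E1 0.613 and CYP2B6 0.621, and CYP1A2 and CYP2C8 had 0.0478 and 0.0273. Expressed as normalized reads on a scale common to all libraries, the mean of CYP3A4 was 12.3 in vehicle and 11.3 in EZHi. The 10 hepatocyte markers checked ranged from 0.567 estimated FPKM for TM4SF4, within the range of these P450 genes, to 16199 for AFP, with 10106 for ALB. The summed level of all 43 genes ranged from 389 to 435 estimated FPKM in vehicle libraries and from 381 to 425 in EZHi libraries, so the ranges overlapped. The sum over families 1 to 3 was 111 to 115 in vehicle and 97.1 to 118 in EZHi.

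**Figure D1:**
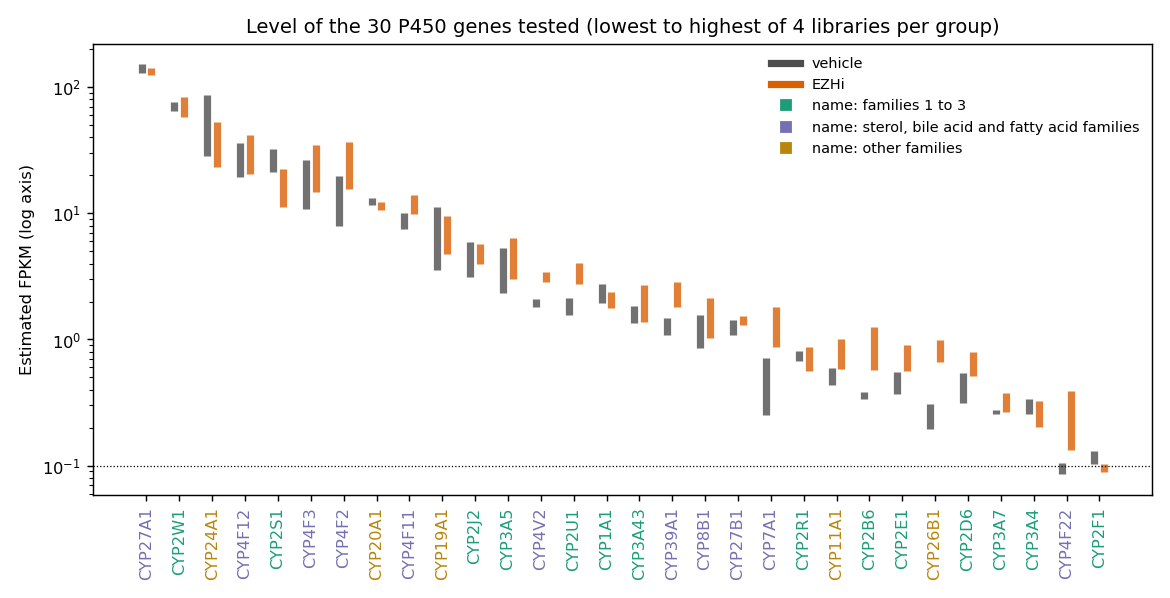
Estimated FPKM (log axis) of the 30 P450 genes with a mean of at least 0.1, ordered by level, with bars from the lowest to the highest of the 4 libraries in vehicle (grey) and EZHi (orange); name colours give the family class and the dotted line marks 0.1. Genes at 10 or more, from CYP27A1 to CYP4F11, have overlapping bars in the groups, whereas bars of CYP26B1, CYP7A1, CYP2B6 and CYP4F22 at the lower end do not overlap.

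To ask which P450 genes responded to EZH1/2 inhibition, the values of EZHi and vehicle libraries were compared with limma over all 20153 genes whose mean reached 0.1 estimated FPKM, and a gene counted as called when its adjusted p was under 0.05. This filter left 30 of the 43 P450 genes. CYP4F22 reached 0.1 only through its EZHi mean, and CYP2F1 only through its vehicle mean. Of these, 9 were called higher and 1 lower, where 8.85% of all genes tested were called higher and 4.27% lower. The genes called higher were CYP2B6, CYP2E1 and CYP2U1 in families 1 to 3, CYP7A1, CYP39A1, CYP4F22 and CYP4V2 in the sterol, bile acid and fatty acid families, and CYP26B1 and CYP11A1 in other families. CYP2F1 was called lower. Without any overlap between groups, 8 genes were higher and 1 was lower in EZHi, against 10.7% and 7.93% of all genes. The number called higher was 7 without vehicle replicate 1, vehicle replicate 2, EZHi replicate 1, EZHi replicate 3 or EZHi replicate 4, and 11 without vehicle replicate 3. In these fits with a library left out, 1422 to 1711 of all 20153 genes were called higher.

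Libraries of equal replicate number resembled each other, so the comparison was repeated with the replicate number as a block. This raised the number of P450 genes called higher to 14 (46.7% of the 30) and lower to 3 (10.0%). The shares of all genes were 14.9% and 15.1% with the block. The genes added by the block were CYP2D6, CYP3A5, CYP4F2, CYP4F3 and CYP4F11 as higher and CYP2S1 and CYP24A1 as lower.

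Without the block, the calls followed the level of expression. Of the 11 P450 genes between 0.1 and 1 estimated FPKM, 6 were called higher and 1 lower, compared with 13.8% and 0.392% of all genes at this level. The 6 include CYP4F22 and the 1 lower is CYP2F1, which each passed the filter through the mean of a single group. Of the 10 between 1 and 10, 3 were called higher and 0 lower, compared with 11.3% and 2.25%. None of the 9 at 10 or more was called, compared with 2.73% called higher and 9.16% called lower, although the block added 3 of them as higher and 2 as lower (8.20% and 32.5% of all genes at this level). At an unadjusted p under 0.05 in limma without the block, 2 of these 9 were higher and 1 was lower (5.80% and 24.1% of all genes at this level).

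By class, 3 of 14 tested genes of families 1 to 3 were called higher and 1 lower. In the sterol, bile acid and fatty acid families 4 of 11 genes were called higher and 0 lower. In other families 2 of 5 genes were called higher and 0 lower. Of all genes tested, 8.85% were called higher and 4.27% lower. At an unadjusted p under 0.05 in limma, 4 and 2 genes of families 1 to 3, 6 and 0 of the sterol, bile acid and fatty acid families and 2 and 0 of other families were higher and lower, against 14.7% and 12.0% of all genes. The median log2 fold change was 0.11 in families 1 to 3, 0.44 in the sterol, bile acid and fatty acid families and 0.04 in other families, against -0.0077 over all genes tested. The medians of the first classes differed by 0.32, and the same difference taken within each pair of equal replicate number was 0.31, 0.40, 0.27 and 0.29. Left without one library, this difference ranged from 0.14 (without vehicle replicate 2) to 0.50 (without vehicle replicate 3), and it was 0.20 without EZHi replicate 3. Such a fit, without the block, leaves a pair of equal number incomplete, so differences between replicate numbers enter these values. The median of families 1 to 3 was 0.19 without EZHi replicate 2, 0.17 without vehicle replicate 3, 0.06 without EZHi replicate 4 and 0.01 without EZHi replicate 3. That of the sterol, bile acid and fatty acid families was 0.66 without vehicle replicate 3, and it was 0.23 when vehicle replicate 2 and 0.22 when EZHi replicate 3 was left out. Genes are not replicates and several share a locus, so the difference between classes is a description and was not tested.

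**Figure D2:**
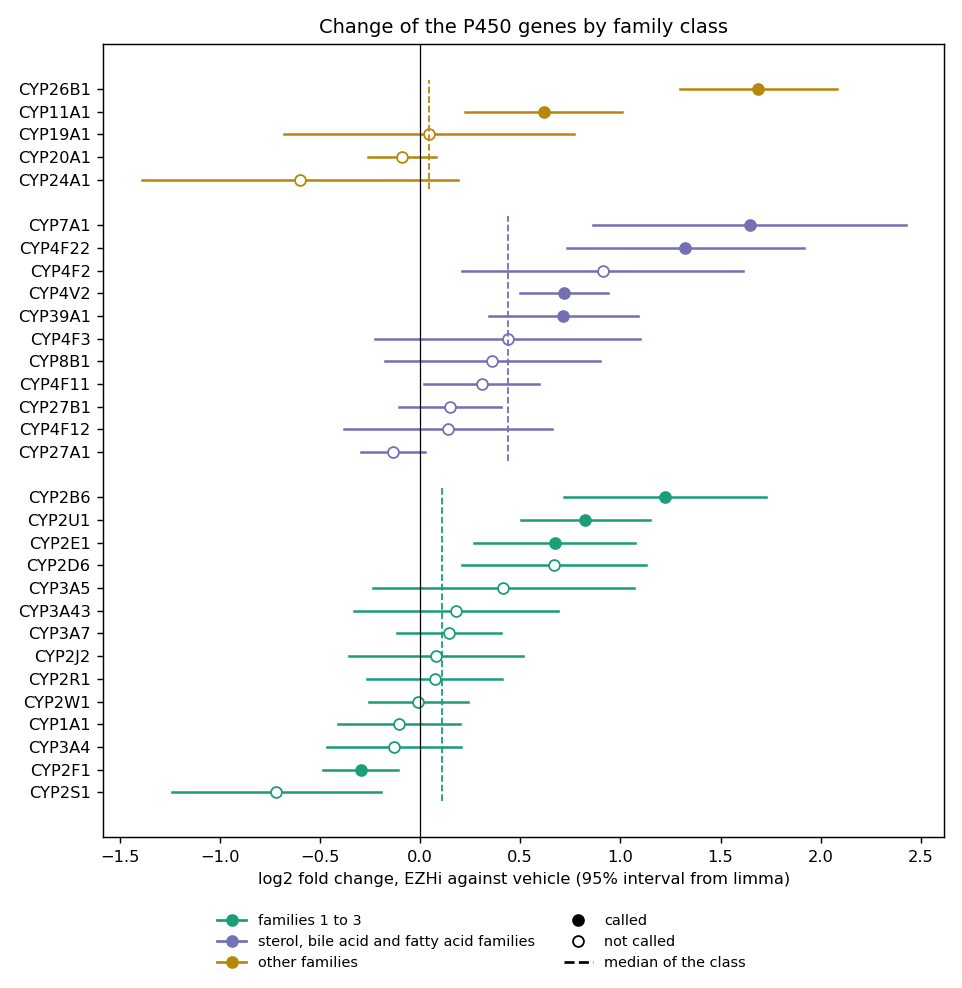
Log2 fold change of the 30 tested P450 genes in EZHi against vehicle (x axis) with 95% intervals from limma, grouped by class; filled points were called, open points were not, and dashed lines mark the median of each class (0.11, 0.44 and 0.04). In the sterol, bile acid and fatty acid families 10 of 11 points lie above 0, whereas 9 of 14 do in families 1 to 3. Under quantile normalization CYP27B1 in the former and 4 genes in the latter changed to negative values, and CYP2W1 to a positive one.

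Within families 1 to 3, CYP2B6 changed most. CYP2B6 (ENSG00000197408, GRCh38 chromosome 19, 40991282 to 41018398, plus strand) metabolizes bupropion and cyclophosphamide. Its log2 values were 3.17, 3.12, 3.20 and 3.31 in vehicle replicates 1 to 4 and 4.72, 5.01, 4.09 and 3.88 in EZHi replicates 1 to 4. All EZHi libraries lay above all vehicle libraries, and the EZHi libraries spread more widely. The mean rose from 3.20 ± 0.08 to 4.42 ± 0.53 (SD, n = 4 each), a log2 fold change of 1.22 ± 0.23 (SE, limma adjusted p 0.00595). This corresponds to 15.3 and 37.4 reads on the common scale, and 0.57% of its 100-base windows also occur in the pseudogene CYP2B7P.

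CYP2U1 (ENSG00000155016, chromosome 4, 107931549 to 107953461, plus strand), a fatty acid hydroxylase despite its family number, had log2 values of 5.33, 5.48, 5.51 and 5.78 in vehicle and 6.29, 6.28, 6.14 and 6.69 in EZHi. The groups did not overlap. The change amounted to 0.82 ± 0.14 on the log2 scale (SE, limma adjusted p 0.0043), from 5.53 ± 0.19 to 6.35 ± 0.24 (SD, n = 4 each). The antisense transcript CYP2U1-AS1 had a log2 fold change of 0.42 (limma adjusted p 0.0529, 0.0172 with the replicate block), and 9.1% of the exonic bases of CYP2U1 overlap exons on the other strand. CYP2U1-AS1 had 7.77 and 10.3 reads on the common scale, far below the 146 and 260 of CYP2U1.

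CYP2E1 (ENSG00000130649, chromosome 10, 133520406 to 133561220, plus strand), which oxidizes ethanol and acetaminophen, had log2 values of 3.45, 3.24, 3.79 and 3.83 in vehicle and 3.86, 4.24, 4.36 and 4.55 in EZHi. The highest vehicle and the lowest EZHi library were nearly equal. This was a log2 fold change of 0.67 ± 0.18 (SE, limma adjusted p 0.0353, and 0.00323 with the replicate block). In the fit without the block, the call was lost without vehicle replicate 1 or 2 or EZHi replicate 2, 3 or 4. The limma adjusted p then lay between 0.0677 and 0.102. Exons of SYCE1 on the other strand and of a further annotated gene cover 25.4% of the exonic bases of CYP2E1.

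CYP2F1 (ENSG00000197446, chromosome 19, 41114432 to 41128381, plus strand), known from lung, was near the lower limit of the test. CYP2F1 had a mean of 0.115 estimated FPKM in vehicle and 0.0933 in EZHi, so only vehicle carried it over the filter of 0.1. In the fit without the filter, CYP2F1 was not called (limma adjusted p 0.0612). Its log2 values were 1.41, 1.45, 1.60 and 1.74 in vehicle and 1.39, 1.18, 1.19 and 1.25 in EZHi. These correspond to 3.80 and 3.08 reads on the common scale. The log2 fold change was -0.30 ± 0.084 (SE, limma adjusted p 0.046, and 0.0303 with the replicate block). In the fit without the block, the limma adjusted p was 0.0524 to 0.106 without vehicle replicate 2, 3 or 4 or EZHi replicate 2, 3 or 4. In each of these cases 0 P450 genes were called lower.

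**Figure D3:**
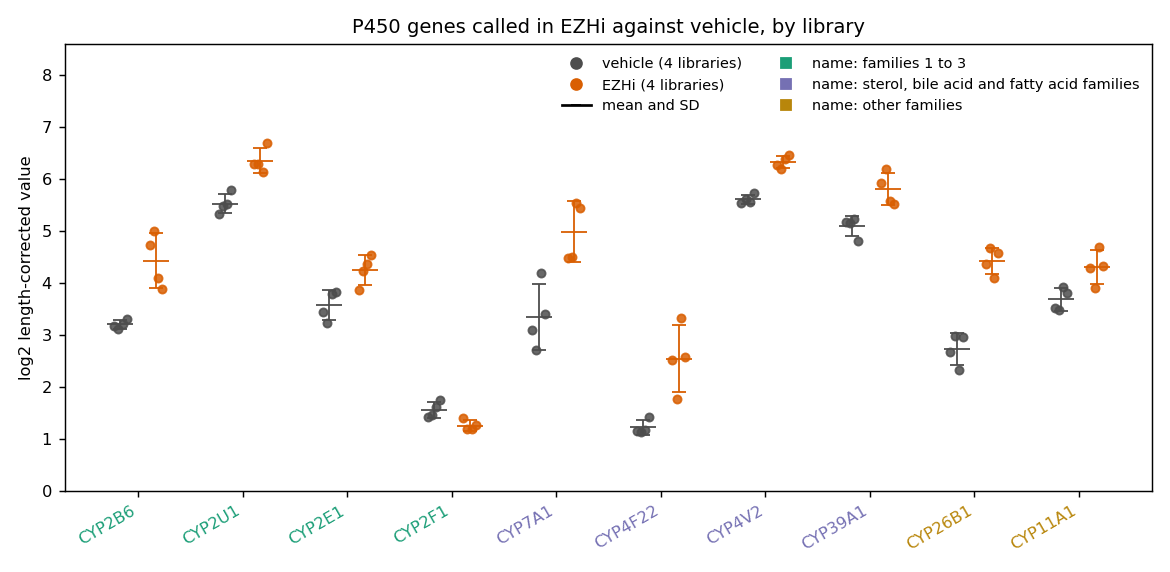
Deposited log2 values (y axis) of the 10 called P450 genes in each of the 4 vehicle (grey) and 4 EZHi (orange) libraries, with bars for mean and SD. EZHi libraries lie above all vehicle libraries for 8 genes, CYP11A1 overlaps by a small margin and CYP2F1 lies lower in EZHi.

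CYP2S1 showed the most negative fold change of all 30 genes, although its order with CYP24A1 was not settled. CYP24A1 had -0.92 without vehicle replicate 3, and the lowest value of CYP2S1 under any alternative was -0.89. CYP2S1, a P450 of epithelial tissues whose locus lies close to CYP2F1 on chromosome 19, had log2 values of 9.58, 9.71, 9.09 and 9.08 in vehicle and 8.92, 9.16, 8.32 and 8.17 in EZHi. EZHi replicate 2 lay above vehicle replicates 3 and 4, so the groups overlapped, although each EZHi library was below the vehicle library of the same number by 0.55 to 0.90. EZHi and vehicle differed by -0.72 ± 0.23 on the log2 scale (SE, limma adjusted p 0.0754, and 7.8e-05 with the replicate block). It passed the threshold without EZHi replicate 2 (limma adjusted p 0.0306). CYP2D6 (0.67, 95% interval 0.21 to 1.13, limma adjusted p 0.061 and 0.0064 with the block) and CYP3A5 (0.41, 95% interval -0.24 to 1.07, limma adjusted p 0.417 and 0.0117 with the block) were higher in all 4 pairs. CYP2D6 shares 30.01% of its 100-base windows with CYP2D7 and CYP2D8P, so its reads may have been split, and it passed the threshold without vehicle replicate 3 or vehicle replicate 4 (limma adjusted p 0.0492 and 0.0393).

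The remaining genes of families 1 to 3 were not called in either fit. CYP3A4, the main drug-metabolizing P450 of adult liver, went from 2.84 ± 0.18 to 2.71 ± 0.29 (SD, n = 4 each), a log2 fold change of -0.13 with a 95% interval of -0.47 to 0.21. CYP3A7, its fetal counterpart, changed by 0.14 (-0.12 to 0.41), and 41.0% of its 100-base windows also occur in other annotated genes, mainly the readthrough gene CYP3A7-CYP3A51P. CYP3A43 changed by 0.18 (-0.33 to 0.69). CYP1A1, the classical target of the aryl hydrocarbon receptor, changed by -0.10 (-0.41 to 0.20). CYP2J2, an arachidonic acid epoxygenase, changed by 0.079 (-0.36 to 0.51) and CYP2R1, a vitamin D 25-hydroxylase, by 0.072 (-0.26 to 0.41). CYP2W1 had 10.82 ± 0.13 in vehicle and 10.81 ± 0.22 in EZHi (SD, n = 4 each), a difference of -0.0085 (-0.26 to 0.24). The sign of the smaller of these values depended on scaling or on single libraries, with CYP2W1, CYP2J2, CYP2R1, CYP3A43 and CYP3A7 changing sign under quantile normalization.

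Among the bile acid enzymes, CYP7A1 and CYP39A1 rose. CYP7A1 (ENSG00000167910, GRCh38 chromosome 8, 58490178 to 58500163, minus strand) catalyzes the first and rate-limiting step of the classical route from cholesterol to bile acids. Its log2 values were 3.09, 2.70, 4.19 and 3.40 in vehicle replicates 1 to 4 and 4.48, 4.495, 5.54 and 5.44 in EZHi replicates 1 to 4. Vehicle replicate 3 was the highest of its group and EZHi replicate 3 the highest of the other, and all EZHi libraries lay above all vehicle libraries. The mean rose from 3.34 ± 0.63 to 4.99 ± 0.58 (SD, n = 4 each), a log2 fold change of 1.65 ± 0.35 (SE, 3.13-fold, limma adjusted p 0.0124). The estimated FPKM rose from 0.428 to 1.32.

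CYP39A1 (ENSG00000146233, chromosome 6, 46549580 to 46652830, minus strand), a 7α-hydroxylase of 24-hydroxycholesterol, had log2 values of 5.17, 5.16, 5.23 and 4.80 in vehicle and 5.93, 6.19, 5.59 and 5.53 in EZHi. The groups did not overlap. The change amounted to 0.71 ± 0.17 on the log2 scale (SE, limma adjusted p 0.0195, and 0.00249 with the replicate block). In the fit without the block, the limma adjusted p rose to 0.0583 when vehicle replicate 4 was left out and to 0.0586 when EZHi replicate 1 was.

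The other tested enzymes of sterol metabolism were not called. CYP8B1, the sterol 12α-hydroxylase that sets the share of cholic acid, went from 4.86 ± 0.36 to 5.22 ± 0.44 (SD, n = 4 each), a log2 fold change of 0.36 with a 95% interval of -0.17 to 0.90. CYP27A1, the most abundant P450 transcript, had log2 values of 11.92, 11.70, 11.91 and 11.90 in vehicle and 11.65, 11.74, 11.82 and 11.68 in EZHi. The groups overlapped only through vehicle replicate 2, and the difference was -0.14 (95% interval -0.29 to 0.02, limma adjusted p 0.264). CYP27B1, which activates vitamin D, changed by 0.15 (-0.10 to 0.40), and by -0.057 under quantile normalization.

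All 6 tested genes of family 4 had positive fold changes under each scaling, except that CYP4F12 was at -0.0045 without vehicle replicate 2 and at -0.041 without EZHi replicate 3, and CYP4F22 and CYP4V2 were called. CYP4V2 (ENSG00000145476, chromosome 4, 186191567 to 186213463, plus strand), a fatty acid ω-hydroxylase, showed the narrowest spread. Its log2 values were 5.54, 5.61, 5.56 and 5.74 in vehicle and 6.28, 6.20, 6.39 and 6.46 in EZHi. The mean rose from 5.61 ± 0.09 to 6.33 ± 0.12 (SD, n = 4 each), a log2 fold change of 0.72 ± 0.098 (SE, limma adjusted p 0.00105).

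CYP4F22 (ENSG00000171954, chromosome 19, 15508525 to 15552317, plus strand) hydroxylates very long-chain fatty acids for the acylceramides of the epidermal barrier. Its log2 values were 1.15, 1.13, 1.16 and 1.42 in vehicle and 2.51, 1.76, 3.33 and 2.57 in EZHi. The groups did not overlap, and EZHi replicate 2 was closest to the vehicle libraries. This was a log2 fold change of 1.32 ± 0.26 (SE, limma adjusted p 0.00909), at 5.89 and 15.8 reads on the common scale. Its mean was 0.091 estimated FPKM in vehicle, under the filter of 0.1, and 0.2445 in EZHi. CYP4F22 thus entered the test only through the group in which it was high. In the fit without the filter, its limma adjusted p was 0.0172. The pseudogene CYP4F23P, which lies between CYP4F22 and CYP4F3 on chromosome 19, was also called higher (log2 fold change 1.29, limma adjusted p 0.000415). Leaving out those of CYP51A1, 15 rows had pseudogene or antisense P450 names, of which 7 were tested. CYP4F23P was the only one called without the block, where 8.85% of all genes tested were called higher. With the block CYP2U1-AS1 was also higher and CYP2T3P was lower (log2 fold change -0.32, limma adjusted p 0.0402).

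The other CYP4F genes of this chromosome 19 cluster differed strongly between replicate numbers. CYP4F2 and CYP4F3 hydroxylate vitamin K and leukotriene B4. CYP4F2 had log2 values of 8.14, 7.67, 8.996 and 8.45 in vehicle and 8.95, 8.64, 9.89 and 9.42 in EZHi. Vehicle libraries spanned 1.33 and overlapped with EZHi, yet the differences within pairs were all between 0.81 and 0.97. The log2 fold change of 0.91 had a standard error of 0.31 without the block (limma adjusted p 0.0915) and of 0.053 with it (limma adjusted p 7.4e-06). It passed the threshold without the block when vehicle replicate 3 was left out (limma adjusted p 0.0337).

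CYP4F3 showed the same ordering of libraries at a smaller distance. Its differences within pairs were 0.41 to 0.47, with a log2 fold change of 0.44 (limma adjusted p 0.397, and 0.00024 with the block). CYP4F11 changed by 0.31 (limma adjusted p 0.156, and 0.00874 with the block), with differences of 0.18 to 0.45. CYP4F12 changed by 0.14 and was called in neither fit (limma adjusted p 0.771, and 0.0793 with the block), although it was higher in 4 of 4 pairs. Replicate number 3 was the highest and number 2 the lowest in both groups for CYP4F2, CYP4F3, CYP4F11 and CYP4F12. CYP4F2 and CYP4F3 share 2.59% and 1.56% of their 100-base windows with each other.

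**Figure D4:**
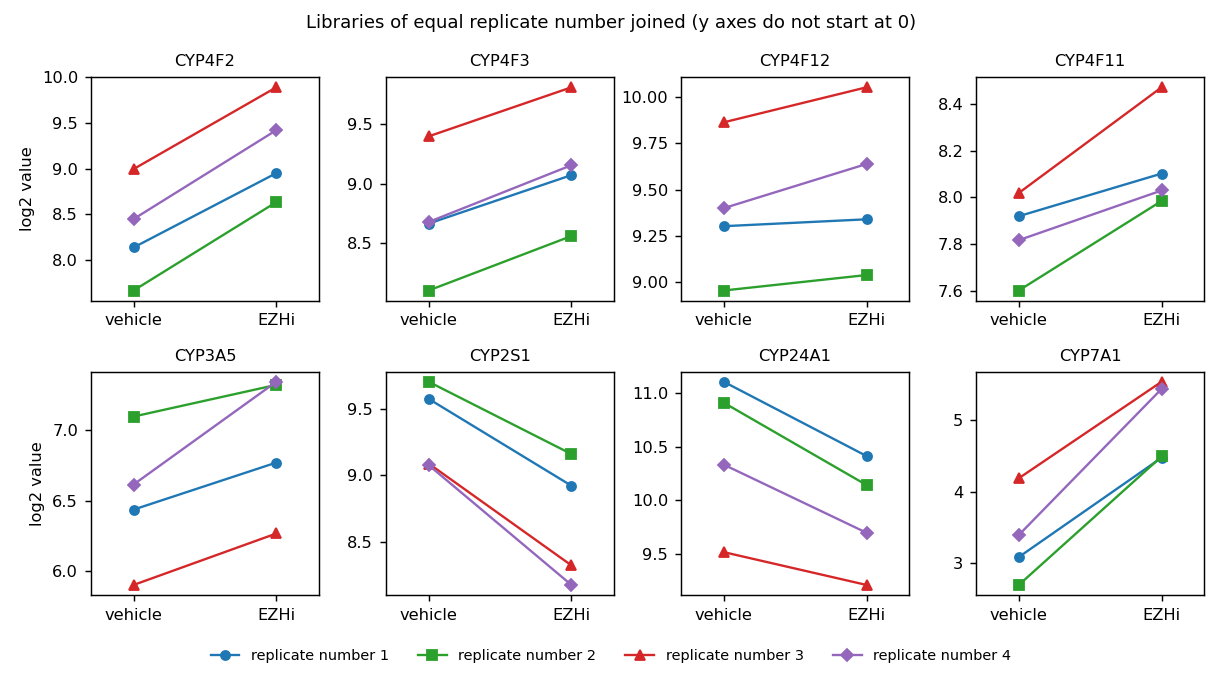
Deposited log2 values (y axis, not starting at 0 and scaled per gene) of 8 P450 genes, with lines joining the vehicle and EZHi library of the same replicate number. Lines of CYP4F2 and CYP4F3 are nearly parallel (0.81 to 0.97 and 0.41 to 0.47), all lines of CYP2S1 and CYP24A1 slope down, and all lines of CYP7A1 slope up.

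Outside these classes, CYP26B1 showed the largest fold change of all tested P450 genes, although its order with CYP7A1 was not settled. Without vehicle replicate 3, the log2 fold change was 1.55 for CYP26B1 and 1.93 for CYP7A1. CYP26B1 (ENSG00000003137, chromosome 2, 72129238 to 72147862, minus strand) degrades retinoic acid. Its log2 values were 2.67, 2.97, 2.32 and 2.97 in vehicle and 4.36, 4.66, 4.09 and 4.57 in EZHi, and its promoter window is the CpG-rich one shown above. The groups were separated by more than 1 log2 unit, and the difference within pairs was 1.61 to 1.77. The mean rose from 2.73 ± 0.31 to 4.42 ± 0.25 (SD, n = 4 each), a log2 fold change of 1.69 ± 0.18 (SE, 3.22-fold, limma adjusted p 0.000194). This was a rise from 18.997 to 60.9 reads on the common scale.

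CYP11A1 (ENSG00000140459, chromosome 15, 74337759 to 74367646, minus strand), the side-chain cleavage enzyme that starts steroid hormone synthesis, had log2 values of 3.52, 3.48, 3.93 and 3.81 in vehicle and 4.28, 3.89, 4.70 and 4.33 in EZHi. EZHi replicate 2 lay just below vehicle replicate 3. The log2 fold change was 0.62 ± 0.18 (SE, limma adjusted p 0.0464, and 0.00303 with the replicate block). Permuting the libraries in an exact two-sided test (70 assignments), without regard to replicate number, gave p = 0.0571. In the fit without the block, the limma call was lost without vehicle replicate 1, 2 or 4 or EZHi replicate 1, 3 or 4. The limma adjusted p was then 0.0787 to 0.122. Genes on the other strand cover 27% of its exonic bases. For the other 9 called genes the permutation test gave p = 0.0286, the smallest it can give here, without adjustment.

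CYP24A1, the vitamin D 24-hydroxylase, had log2 values of 11.11, 10.91, 9.52 and 10.33 in vehicle and 10.41, 10.14, 9.21 and 9.70 in EZHi. Replicate 3 was the lowest in both groups, and each EZHi library was below its vehicle counterpart by 0.31 to 0.77. EZHi and vehicle differed by -0.60 ± 0.35 on the log2 scale (SE, limma adjusted p 0.325), and with the replicate block its standard error was 0.073 (limma adjusted p 0.000395). CYP19A1, the aromatase, changed by 0.044 (95% interval -0.68 to 0.77), and CYP20A1, whose substrate is not known, by -0.091 (-0.26 to 0.08).

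The 13 genes under the filter were CYP1A2, CYP1B1, CYP2C8, CYP2D7, CYP4A11, CYP4X1, CYP7B1, CYP17A1, CYP21A2, CYP26A1, CYP26C1, CYP27C1 and CYP46A1. Their means were 0.0079 to 0.0902 estimated FPKM, or 0.57 to 12.2 reads on the common scale in either group. In a fit without the filter, where 8.28% of 25603 genes were called higher, 4 of the 13 were called higher and 0 lower (5 and 0 at an unadjusted p under 0.05 in limma, where 15.5% of all genes were higher). CYP7B1, the oxysterol 7α-hydroxylase of the alternative route to bile acids, had log2 values of 0.66, 0.90, 0.41 and 0.66 in vehicle and 1.59, 1.68, 1.42 and 1.68 in EZHi (limma adjusted p 0.000766), at 6.40 and 12.2 reads. CYP46A1, the cholesterol 24-hydroxylase, had 0.68, 0.58, 0.50 and 0.50 in vehicle and 1.32, 1.12, 1.44 and 1.66 in EZHi (limma adjusted p 0.00167), at 3.08 and 5.47 reads. CYP26A1, another retinoic acid hydroxylase, differed by 0.22 (limma adjusted p 0.0386), at only 2.28 and 2.66 reads in vehicle and EZHi. Exons of another annotated gene on the same strand cover 25.3% of its exonic bases. CYP27C1, a retinoid desaturase, differed by 0.21 (limma adjusted p 0.0496), at 5.00 and 5.80 reads. The deposited values shrink the differences of genes with so few reads, and the depth of the libraries is unknown, so no statement is made about the other 9 genes beyond their not being called.

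Genes that serve or control P450 enzymes were read from the same fit. Of all genes tested, 8.85% were called higher and 4.27% lower, and 14.9% and 15.1% with the replicate block. At an unadjusted p under 0.05 in limma without the block, these shares were 14.7% and 12.0%. Of 8 tested electron-transfer partners and related proteins, PGRMC1, a heme-binding protein that associates with P450 enzymes, was called higher (log2 fold change 0.22, limma adjusted p 0.0462) and 0 were called lower (1 and 2 at an unadjusted p under 0.05), and with the replicate block CYB5B and CYB5R3 were lower. POR, the reductase of microsomal P450 enzymes, had 279.9 estimated FPKM and changed by -0.07 (limma adjusted p 0.809). None of the 9 enzymes of heme synthesis and degradation was called by limma without the block (1 higher and 1 lower at an unadjusted p under 0.05), and with it HMOX1 was higher and ALAS1 and UROD were lower. Of 27 tested regulators, 3 were called higher and 0 lower by limma (4 and 1 at an unadjusted p under 0.05), against 7 and 3 with the block. NR1H4, the bile acid receptor FXR, went from 7.83 ± 0.34 to 8.89 ± 0.28 (SD, n = 4 each), a log2 fold change of 1.06 (limma adjusted p 0.00412). NR5A2, a nuclear receptor known to act on the CYP7A1 promoter, changed by 0.50 (limma adjusted p 0.00398), and VDR, the vitamin D receptor, by 0.80 (limma adjusted p 0.00507). NR0B2, the repressor SHP, changed by -0.20 (limma adjusted p 0.363). The receptors of foreign compounds were not called, with changes of -0.12 for NR1I2 (PXR), 0.03 for NR1I3 (CAR) and 0.10 for AHR. HNF4A and FGFR4, at 269.4 and 382.9 estimated FPKM, changed by 0.04 and 0.05.

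P450 genes were also read against gene lists that the study used. Of all genes tested, 8.85% were called higher and 4.27% lower, and 14.9% and 15.1% with the replicate block. The hepatocyte-enriched list held 15 P450 entries, of which 9 were among the 43 genes and 6 were tested. CYP39A1 was called higher, and CYP4F2 and CYP4F3 were added by the replicate block. The Epith-Signature is a list of genes of the human epithelial lineage that is held in mouse-style symbols and was matched after capitalising. It held 12 P450 entries, of which only CYP24A1, CYP26B1, CYP27B1 and CYP2S1 were among the 43 genes. CYP26B1 was called higher, whereas CYP24A1 and CYP2S1 were lower with the block.

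Markers of other cell types were checked in the same libraries. Of all genes tested, 8.85% were called higher and 4.27% lower, and 14.9% and 15.1% with the replicate block. At an unadjusted p under 0.05 in limma, 14.7% of all genes were higher. Of 10 hepatocyte markers, FGB was called higher, and with the replicate block APOA1 and APOB were also higher and ALB was lower. None of 5 cholangiocyte markers was called by limma (1 was higher at an unadjusted p under 0.05), and SPP1 and SOX9 were higher with the replicate block. Of 8 markers of blood, endothelial and stromal cells, 4 were in the table and VWF was called higher (log2 fold change 1.45, limma adjusted p 0.0054), and the summed level of the 4 was 23.97 to 32.0 estimated FPKM in vehicle and 31.6 to 37.4 in EZHi. Their part in the P450 results was not tested. These are bulk libraries, in which a change in the number of cells that express a gene and a change in RNA per cell cannot be told apart.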

How the data were processed

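RNA from HepG2 cells was sequenced as paired reads of 150 bp. The methods describe that the authors aligned reads to hg38 with HISAT2, counted them per gene without strand with HTSeq, and deposited log2 values made with the regularized log of DESeq2 and corrected for gene length. The submitters' processing notes give HISAT2 2.2.1, HTSeq 0.9.1 and DESeq2 1.40.2, and the methods of the study name other versions of HISAT2 and DESeq2. The table is named as FPKM, but its values are logarithmic (-6.81 to 19.01). The regularized log shrinks differences of genes with few reads. Counting without strand could not separate overlapping genes, and reads of near-identical copies may have been split or lost. Of 25604 rows, 1 was a repeat and was dropped. Coordinates came from GENCODE 44 (GRCh38). Read depth is unknown, so no counting interval was given. Values converted back to normalized reads summed to 24.36 to 27.31 per library in units of 1e6 reads, and their mean of 25.6 in the same units set the scale of the estimated FPKM.

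Groups and replicate numbers came from the sample titles. Genes whose mean reached 0.1 estimated FPKM entered limma 3.58.1 (trended prior, group only, two-sided, Benjamini-Hochberg over all 20153 genes, called at adjusted p under 0.05) in R 4.3.3, with summaries in Python 3.11.15, numpy 2.4.6, pandas 2.3.3 and matplotlib 3.10.9. The design allowed for linear or log2 values. The values were log2 and were tested as deposited, so a logarithm with a pseudocount served only as an alternative on estimated FPKM. Libraries of equal number deviated together from their group means (r = 0.31, 0.558, 0.634 and 0.216 for numbers 1 to 4, across genes), so the numbers pair the samples. The fit was tested on simulated data with known answers, where it called 184 of 200 changed genes at the spread of this comparison, 6 unchanged ones, and 0 where none was changed. The planted changes were of at least 1 log2 unit, and the simulated noise was independent between libraries, without pairing by number. The simulation therefore does not show how often smaller changes are missed or how the fit behaves with paired libraries. Every P450 gene may be named, with full statistics for those called. Members, classes and lists were chosen with earlier results of these data known. Alternatives were other scalings, filters, pseudocounts, no trend, the replicate block and libraries left out. Protein sequences were not used here.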

Additional observations from a re-analysis of the deposited data

Results flagged for a closer look

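Over 60 groups of 4 libraries, 4 had a library that stood apart from the other 3 in a P450 gene by Dixon's criterion for the gap to the nearest library as a share of the range, where chance gives about 3. CYP4F22 in vehicle had a ratio of 0.902, with replicate 4 at 1.42 and the others at 1.13 to 1.16, and the gene kept its call without that library. CYP27A1 in vehicle had a ratio of 0.890, with replicate 2 at 11.70 below the others at 11.90 to 11.92. CYP2R1 in vehicle had a ratio of 0.853, with replicate 4 at 4.38 above the others at 4.11 to 4.15. CYP3A7 in EZHi had a ratio of 0.853, with replicate 4 at 3.27 above the others at 2.77 to 2.84. CYP27A1, CYP2R1 and CYP3A7 were called under none of the 8 settings without one library.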

How the results depend on the processing

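CYP26B1, CYP2B6, CYP2U1, CYP4F22, CYP4V2 and CYP7A1 kept their direction and their call under each alternative in which they were tested. CYP4F22 passed the filter of the main fit only through its EZHi mean. CYP11A1 lost its call under 9, CYP2E1 under 7 and CYP39A1 under 3 of the alternatives, among them quantile normalization for all 3 genes, and CYP2F1 under 13. The cause was not tested. The replicate block changed no other call of a P450 gene than those given with the results. Depth is unknown, and genes with few reads have shrunken differences, so fold changes of low genes may differ from those in the cells by an unknown amount. Quantile normalization shifted the median gene by -0.104 on the log2 scale.

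With the replicate block, 6051 genes were called. Of all genes tested, 3003 (14.9%) were higher and 3048 (15.1%) lower, with 14 P450 genes higher and 3 lower. By class, 5 were higher and 2 lower in families 1 to 3. In the sterol, bile acid and fatty acid families 7 were higher, and in other families 2 were higher and 1 lower. At an estimated FPKM of at least 1, where only 13007 genes were tested, 1579 were called (780 higher, 799 lower). Of the P450 genes, 3 were higher (1, 2 and 0 by class) and 0 lower. Centring on genes at 10 or more left 398 genes called lower. The single P450 gene called lower, in families 1 to 3, was lost (0 called) with centring, no filter, each pseudocount, no trend and without both libraries numbered 3 (an alternative chosen after seeing the data). Without the filter 7 genes of the sterol, bile acid and fatty acid families were called higher, where 8.28% of all genes were. In other families 1 gene was called higher with quantile normalization or without both libraries numbered 3, where 1402 and 1596 of 20153 genes were. The median of families 1 to 3 was -0.0043 with quantile normalization, 0.19 with centring, and 0.062 and 0.048 with pseudocounts of 0.5 and 1. That of the sterol, bile acid and fatty acid families was 0.51 with centring, 0.36 at an estimated FPKM of at least 1, and 0.32 and 0.28 with pseudocounts of 0.5 and 1. Their difference was 0.51 with quantile normalization and 0.26 and 0.23 with these pseudocounts. A pseudocount of 1 also lowered the log2 fold changes of CYP26B1 to 0.54, CYP7A1 to 0.68, CYP2B6 to 0.45 and CYP4F22 to 0.19 by its construction.

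Leaving out one library each gave 1811 to 2571 called genes, 1422 to 1711 higher and 389 to 860 lower (389 without EZHi replicate 4, 454 without vehicle replicate 4, 495 without vehicle replicate 1, 554 without EZHi replicate 1). P450 genes called higher numbered 7 to 11 and called lower 0 to 1. By class, 2 to 4 were higher and 0 to 1 lower in families 1 to 3, 3 to 5 higher in the sterol, bile acid and fatty acid families and 1 to 2 higher in other families. The medians were 0.013 to 0.19, 0.22 to 0.66 and -0.057 to 0.32 in the same order, and the difference of the first ones was 0.14 to 0.50. Each of these fits leaves a pair of equal number incomplete, so differences between replicate numbers enter them.

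Direction changed only for genes that were not called. Under quantile normalization the log2 fold changes were -0.057 for CYP27B1, -0.0083 for CYP2J2, -0.14 for CYP2R1, 0.11 for CYP2W1, -0.00042 for CYP3A43 and -0.034 for CYP3A7, and with centring CYP2W1 had 0.067. Without both libraries numbered 3, CYP1A1 had 0.066, CYP2R1 -0.0081 and CYP2W1 0.040. With one library left out, CYP19A1 ranged from -0.23 to 0.32, CYP2J2 from -0.085 to 0.22, CYP2W1 from -0.093 to 0.080 and CYP4F12 from -0.041 to 0.30.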

Other observations

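Of the 8 P450 genes called higher with a RefSeq promoter window, 5 (CYP26B1, CYP2U1, CYP39A1, CYP4F22 and CYP4V2) had an observed/expected CpG ratio of 0.6 or more, and 3 (CYP11A1, CYP2B6 and CYP2E1) did not. Among the tested genes that were not called, the corresponding number was 5 of 15. These counts are a description of the genes with a window and were not tested.

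TBXAS1, the thromboxane synthase and a P450 enzyme named without the CYP stem, went from 5.11 ± 0.22 to 5.47 ± 0.10 (SD, n = 4 each), a log2 fold change of 0.36 (limma adjusted p 0.0935, and 0.0237 with the replicate block). PTGIS, the prostacyclin synthase, was under the filter.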
